A study of Mus musculus with 18 samples.

Results

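The erythroid genes described here are 30 genes of the red cell programme, taken from the expression table by gene symbol whatever their values. A row was found for 29 of them among 44349 rows; the chaperone Ahsp had no row under that symbol and was not analysed here. The genes were read in 18 libraries of RNA from sorted mouse bone marrow cells, 3 libraries in each of 6 groups. The sort gate was that of long-term haematopoietic stem cells (LT-HSC), given as Lineage-, Sca-1+, c-Kit+, CD34-, Flk2- and CD49b low. DERARE is a retinoic-acid-responsive enhancer at the Hoxb cluster, and the study compared wild-type mice with mice lacking it. The groups are WT (wild type), Wnt5a (labelled by the ligand alone, with wt in the column headings), KO Ctrl (labelled a knockout control), KO Wnt5a (labelled a Wnt5a rescue of the knockout), WT Reserve (wild type, reserve) and KO Reserve (labelled a reserve knockout). The description fields of KO Ctrl and KO Reserve also carry the words for wild type, so the groups here follow the sample titles. The table's column headings put the letters fl after DERARE for the 6 reserve libraries, ahead of ko or wt. The labels do not explain those letters or the word reserve, and give no details of the Wnt5a exposure, the making of the deletion, the age or strain of the mice, or whether the 3 libraries of a group came from separate mice. The p-values below therefore measure only the spread between these libraries, which may be technical.

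Red cells arise from stem cells through progenitors that respond to erythropoietin through its receptor, encoded by Epor. The transcription factors GATA1, which binds GATA words, and KLF1, which binds CACC-type words, switch on the globins, the enzymes of haem and gas handling, the membrane skeleton and the blood group proteins. Carbonic anhydrase 1, blood group proteins and KLF1 mark committed erythroid progenitors, whereas band 3 (Slc4a1) and abundant globin mark the later, haemoglobin-filling erythroblasts. GATA1 and carbonic anhydrase 2 are not specific to red cells: megakaryocytes, mast cells and other blood cells use GATA1 as well.

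The stretches before the RefSeq starts of 6 genes are printed here. Rhag, Rhd, Kel, Ermap and Tspo2 were at 0.54 FPKM or less in each of the 12 libraries outside the reserve groups. They were at 48.5 FPKM or more in each of the 6 reserve libraries. Car1 and Hba-a1 also met these limits but are not printed. Gata1, which was present in all 18 libraries, is printed as the contrast. FPKM is the number of sequenced fragments scaled to the transcript's length and the library's depth. The sequences come from RefSeq (GRCm38.p6), each on the gene's own strand. For Rhag, Rhd, Kel, Ermap and Tspo2 the stretch ends just before the annotated gene; for Gata1 it lies before the RefSeq start but inside the longer GENCODE gene (chrX:7959260-7978071). Capitals mark GATA words (AGATAA or AGATAG or TGATAA or TGATAG) and the CACC-type word CCNCNCCC, found on either strand. Rhag (chr17:40810899-40811125, plus strand), Rhd (chr4:134864286-134864535, plus), Kel (chr6:41704340-41704575, minus), Ermap (chr4:119190012-119190245, minus), Tspo2 (chr17:48451523-48451751, minus) and Gata1 (chrX:7967911-7968160, minus) read, 5′ to 3′:
Rhag: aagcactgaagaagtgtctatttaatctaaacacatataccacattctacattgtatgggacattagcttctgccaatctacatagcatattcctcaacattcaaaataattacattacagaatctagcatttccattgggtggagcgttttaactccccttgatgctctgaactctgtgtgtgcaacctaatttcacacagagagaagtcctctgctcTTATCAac
Rhd: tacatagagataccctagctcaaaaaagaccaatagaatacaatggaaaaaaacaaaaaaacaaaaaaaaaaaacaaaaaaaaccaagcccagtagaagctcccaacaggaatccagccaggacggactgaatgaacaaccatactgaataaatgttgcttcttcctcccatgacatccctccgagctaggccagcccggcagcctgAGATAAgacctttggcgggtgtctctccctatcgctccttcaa
Kel: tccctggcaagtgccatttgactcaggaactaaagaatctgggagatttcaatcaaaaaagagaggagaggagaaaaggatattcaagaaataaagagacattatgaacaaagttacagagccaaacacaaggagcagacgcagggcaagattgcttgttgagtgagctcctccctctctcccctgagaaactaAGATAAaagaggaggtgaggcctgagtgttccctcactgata
Ermap: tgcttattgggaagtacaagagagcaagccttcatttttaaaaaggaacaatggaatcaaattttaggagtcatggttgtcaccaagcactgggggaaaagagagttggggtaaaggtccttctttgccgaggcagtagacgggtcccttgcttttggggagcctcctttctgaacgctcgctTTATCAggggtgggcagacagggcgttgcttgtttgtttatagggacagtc
Tspo2: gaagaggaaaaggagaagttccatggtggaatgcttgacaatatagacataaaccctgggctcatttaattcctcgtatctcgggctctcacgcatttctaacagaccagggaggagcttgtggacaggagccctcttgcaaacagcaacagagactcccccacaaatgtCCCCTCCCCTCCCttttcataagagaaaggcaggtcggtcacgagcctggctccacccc
Gata1: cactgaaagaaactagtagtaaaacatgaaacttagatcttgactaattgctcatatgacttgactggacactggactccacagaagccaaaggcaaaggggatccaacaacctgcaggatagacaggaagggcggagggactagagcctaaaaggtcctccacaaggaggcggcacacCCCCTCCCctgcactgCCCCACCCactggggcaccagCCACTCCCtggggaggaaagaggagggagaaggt
Each of Rhag, Rhd, Kel and Ermap held at least 1 GATA word in this stretch. Tspo2 held 0 GATA words and 2 CACC-type words, and Gata1 held 0 and 3. Over the full windows of 250 bases before to 50 after a gene start, 16 of the 24 windows available for 21 of the genes (66.67%) held a GATA word, beside 29.76% of 32851 windows of all genes. CCNCNCCC was in 14 of the 24 (58.33%) beside 49.47% of all windows, and both words were in 6 (25%) beside 10.25%. The GATA and CACC-type matches did not overlap in these windows. These matches are descriptions of letters, not of binding.

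The reserve libraries stood apart from the rest in markers of many lineages. The values of 6690 genes with 1 transcript imply depths of 20.6 to 41.7 M (mega) fragments. On a 1 kb transcript 3 fragments are then worth 0.072 to 0.145 FPKM, counting error only. Replicates of a group correlated at Pearson r 0.932 to 0.968 across genes. The summed FPKM of 9 LT-HSC markers was 325 to 366 in WT, 208 to 314 in WT Reserve and 65.1 to 72.6 in KO Reserve. The sum hides opposite directions in WT Reserve. By limma's test described below, 5 of the 9 were higher and 3 lower in WT Reserve than in WT. The median log2 difference of the 9 was 0.518. For all genes the shares were 30.8% higher and 27.9% lower. The sum of 8 granulocyte markers was 79.9 to 95.9 in WT, 4657 to 10380 in WT Reserve and 2455 to 3692 in KO Reserve. B cell and T cell marker sums were also higher in the reserve libraries (589.5 to 636 and 70.1 to 113 in WT Reserve, 370.1 to 482 and 24.1 to 30.4 in KO Reserve). The sum of 8 megakaryocyte markers was 7358 or more in each of the other 12 libraries and 182 or less in the reserve libraries, where Gp6 was at 0. Cd34, whose protein the gate excludes, averaged 358 ± 15.2 FPKM in WT and 67.8 ± 3.35 in WT Reserve (SD, n = 3). Flt3, which encodes Flk2, also excluded by the gate, went the other way, from 0.516 ± 0.24 FPKM in WT to 15.5 ± 3.15 in WT Reserve. Cd48, a marker of later progenitors, was 14.2 ± 0.462 FPKM in WT and 199.7 ± 32.7 in WT Reserve. The reserve label, the heading letters and these marker contents coincide in all 18 libraries, so their parts in a difference between reserve and other libraries cannot be told apart.

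**Figure D1:**
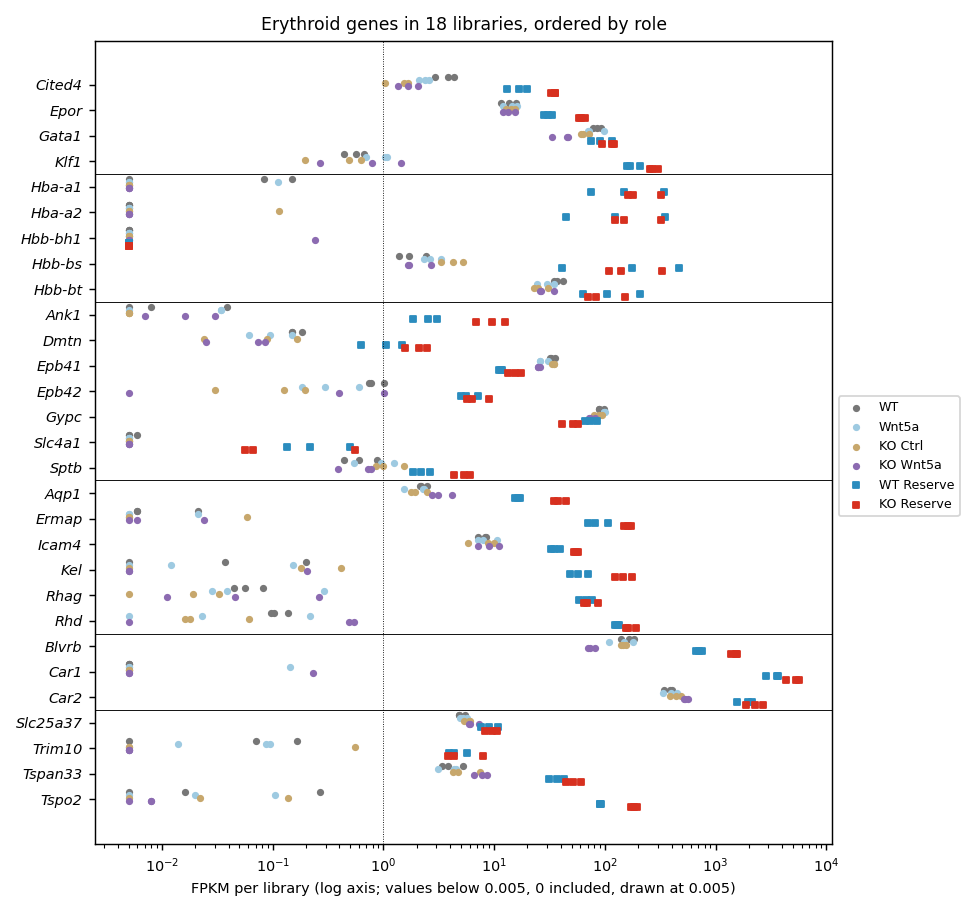
FPKM of the 29 erythroid genes (rows, grouped by role) in each of the 18 libraries, on a log axis; each point is 1 library, coloured by group. The reserve libraries lie to the right for 25 genes and to the left for Epb41.

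In the reserve libraries most of the erythroid genes were present at levels far above those of the other 12 libraries, and Car1 went from near 0 to at least 2842 FPKM. All 6 reserve libraries lay above all 12 others for 25 of the 29 genes and below them for 1, Epb41. Of the 27 that passed the filter given next, 24 lay wholly above. Among all 14285 genes tested, which passed the same filter, 13.8% lay wholly above and 20.5% wholly below. Of the 29 genes, 27 passed the filter of at least 1 FPKM in 3 libraries; Slc4a1 and Hbb-bh1 did not. Of the 27, 13 passed through the reserve libraries alone, so that a difference in those 13 follows from the filter. All 13 are among the 24 that lay wholly above. In limma's test on log2(FPKM + 1), with Benjamini-Hochberg adjustment over all 14285 genes and a threshold of 0.05, 24 of 27 were higher and 2 lower in WT Reserve than in WT, where 58.7% of all genes were called, 30.8% higher and 27.9% lower. In KO Reserve against KO Ctrl 25 were higher and 2 lower, beside 24.8% and 40.4% of all genes (65.3% in either direction). Of the other 14 genes, which also reached the filter outside the reserve groups, 11 rose and 2 fell in WT Reserve, while KO Reserve had 12 up and 2 down. The median log2 difference of the 27 genes was 2.30 in WT Reserve against WT and 3.32 in KO Reserve against KO Ctrl, beside 0.06 and -0.19 for all genes tested. The 13 genes that passed through the reserve libraries alone enter the medians of the 27, which thus follow in part from the filter. The list was assembled with earlier results of these data known, so these counts describe the list. In bulk libraries, fewer cells of a type and less RNA per cell cannot be told apart.

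The enzyme carbonic anhydrase 1 gave the widest contrast. Car1 (ENSMUSG00000027556, chr3:14766216-14808368, minus strand, mm10) was listed at 0 in 10 of the 12 libraries outside the reserve groups and reached 0.231 FPKM at most there. It was 2842, 3671 and 3598 FPKM in WT Reserve and 5633, 5302 and 4299 in KO Reserve, with all 3 knockout libraries above all 3 wild-type libraries. A pseudogene on the same strand within Car1, Gm16399, reached 13.5 FPKM at most. Car2, the high-activity carbonic anhydrase of red cells and other tissues, was already present at 338 to 569 FPKM in the 12 libraries outside the reserve groups. It was 1556, 2118 and 1979.9 FPKM in WT Reserve, 2.30 higher on the log2 scale than in WT (SE 0.14; limma, adjusted p = 4.07e-10). Blvrb, which encodes biliverdin reductase B, rose by 2.13 (SE 0.14; limma, adjusted p = 1.33e-09), to 667, 762 and 716 FPKM from 166, 141 and 183 in WT. These 3 enzymes were the most abundant members in the reserve libraries.

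The regulators did not move alike. Klf1, which encodes the erythroid factor KLF1, was 0.666, 0.563 and 0.437 FPKM in WT and 169.5, 159 and 206 in WT Reserve, with no overlap between the reserve libraries and any other library. Gata1 was the 1 tested member not called between WT Reserve and WT: it was 92.2, 77.6 and 84.3 FPKM in WT and 90.3, 74.4 and 117 in WT Reserve, and the 2 groups overlapped (log2 difference 0.13, limma, adjusted p = 0.549). Gata1 in the knockout was 61.1, 71.5 and 63 FPKM in KO Ctrl and 122, 116 and 94.3 in KO Reserve, a rise of 0.75 on the log2 scale (SE 0.17; limma, adjusted p = 0.000977). The erythropoietin receptor gene Epor was 13.7, 11.6 and 15.7 FPKM in WT and 28.2, 30.8 and 33.4 in WT Reserve, a rise of 1.13 (SE 0.13; limma, adjusted p = 1.93e-06). Epor was present in every library, and all 6 reserve libraries exceeded the 16.1 FPKM reached at most in the other 12. Cited4, a transcriptional co-activator that binds CBP and p300, rose by 1.89 (SE 0.17; limma, adjusted p = 5.2e-08), from 3.85, 4.35 and 2.94 FPKM to 16.7, 13.1 and 19.9.

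The adult globins were high in the reserve libraries but varied more between replicates than Car1, Klf1, Ermap, Rhd, Rhag, Kel and Tspo2 did. Hba-a1, an alpha globin gene, was 148, 343 and 74.2 FPKM in WT Reserve and 163, 179.8 and 321 in KO Reserve, and at 0.148 or less in the other 12 libraries. Hbb-bs, an adult beta globin gene, was 176, 463 and 41.1 in WT Reserve and 109, 139 and 331 in KO Reserve, and 1.40 to 5.21 in the other 12. Within WT Reserve, the library with the most globin, replicate 2, held several times the globin of replicate 3 for each of the 4 adult genes. The longest transcripts of Hba-a1 and Hba-a2 differ at 1 of 538 aligned bases (99.81% identity), and those of Hbb-bs and Hbb-bt at 41 of 616 with 2 gap bases (93.34%), so the split of fragments within each pair is uncertain. Hba-a2 was 124, 348 and 45 FPKM in WT Reserve and 124, 150.0 and 321 in KO Reserve. Hbb-bt was 104, 208 and 63.5 in WT Reserve and 69.8, 82.5 and 153 in KO Reserve, and differed from the others in having 23.1 to 41.9 FPKM outside the reserve groups. The embryonic beta-like globin gene Hbb-bh1 was listed at 0 in 17 libraries and at 0.239 FPKM in KO Wnt5a replicate 3.

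**Figure D2:**
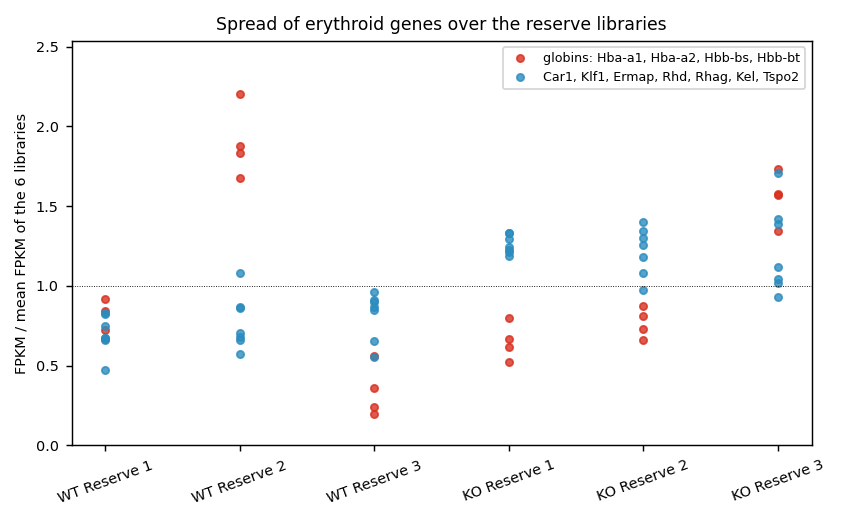
FPKM in each of the 6 reserve libraries divided by the gene's mean over those 6 libraries, for the adult globins and for Car1, Klf1, Ermap, Rhd, Rhag, Kel and Tspo2. The 4 globins rise and fall together by library, with WT Reserve replicate 2 and KO Reserve replicate 3 high. Car1, Klf1, Ermap, Rhd, Kel and Tspo2 are higher in each KO Reserve library than in each WT Reserve library, while Rhag overlaps.

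The globin sum and Ermap had different orders across the WT Reserve libraries. The globin sum over the 4 adult genes was 553, 1363 and 224 FPKM in WT Reserve replicates 1 to 3, and 466, 551 and 1126 in KO Reserve. Ermap, which encodes the Scianna blood group protein, was 81.7, 70.4 and 107 FPKM in WT Reserve replicates 1 to 3. The replicate with the least globin thus had the most Ermap. In KO Reserve, Ermap was 149.7, 160.5 and 171 FPKM, in the same order as the globin sum. Kel and Tspo2 also followed that order in KO Reserve, while Car1, Klf1, Rhd and Rhag ran in the opposite order. In WT Reserve, Car1, Kel and Rhag peaked in replicate 2, as globin did, while Klf1 and Rhd peaked in replicate 3. Tspo2 was highest in replicate 1. The granulocyte sum in WT Reserve was 4657, 5568 and 10380 FPKM, highest where globin was lowest. In KO Reserve it was 2455, 3692 and 3145. The part of granulocyte RNA in these values was not tested.

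Most membrane skeleton genes were present at low levels, and Epb41 and Gypc were lower in WT Reserve than in WT. Ank1, the ankyrin that ties spectrin to band 3, was at 0.039 FPKM or less outside the reserve groups and 3.04, 1.85 and 2.53 FPKM in WT Reserve. Sptb, beta spectrin, was 2.63, 1.87 and 2.2 FPKM in WT Reserve, with 0.386 to 1.54 outside. Slc4a1, the anion exchanger band 3, stayed under 1 FPKM in all 18 libraries (0.218, 0.501 and 0.135 in WT Reserve and 0.552, 0.056 and 0.067 in KO Reserve), and Dmtn, the actin-bundling protein dematin, reached 2.5 at most and 0.185 outside the reserve groups. Band 3 and dematin RNA were thus at the low end of the list in the libraries where Car1 was at its top. Epb42, protein 4.2, was 5.59, 4.98 and 7.19 FPKM in WT Reserve, against 1.02 at most elsewhere.

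Epb41 and Gypc encode protein 4.1 and glycophorin C, which bind each other in the red cell membrane, and both have products in other cells. Epb41 was 32.9, 31.8 and 35.2 FPKM in WT and 11.2, 11.8 and 11.6 in WT Reserve, a fall of 1.45 on the log2 scale (SE 0.10; limma, adjusted p = 3.74e-09). It was 13.2, 15.5 and 17.4 FPKM in KO Reserve, below all 12 libraries outside the reserve groups. Gypc was 98.4, 88.2 and 89 FPKM in WT and 73.4, 66.8 and 85.2 in WT Reserve, a fall of 0.29 (SE 0.11; limma, adjusted p = 0.0369). That call ended without any 1 of WT replicates 1, 2 or 3 or WT Reserve replicates 1 or 2, with adjusted p from 0.051 to 0.144. Its larger fall in the knockout, 0.81 in KO Reserve against KO Ctrl, kept its call under every alternative listed for it.

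Several blood group genes went from near 0 to high. Rhd, which forms the Rh complex with Rhag, was 123, 128 and 134 FPKM in WT Reserve, from at most 0.54 outside the reserve groups. Rhag was 58.4, 76.2 and 67.7 FPKM there, from at most 0.29. Kel, the Kell blood group endopeptidase, was 48.5, 70.1 and 57.4 FPKM in WT Reserve. Ermap, Rhd, Rhag, Kel, Tspo2 and Car1 were near 0 in all 12 libraries outside the reserve groups. Tspo2, a cholesterol-binding protein of erythroid cells, was 92.6, 90.5 and 89.8 FPKM in WT Reserve. Icam4, the Landsteiner-Wiener blood group adhesion protein, and Aqp1, the water channel of the Colton group, had measurable levels everywhere. Icam4 was 8.38, 8.35 and 7.22 FPKM in WT and 39.1, 34.8 and 33 in WT Reserve, a rise of 2.03 on the log2 scale. Aqp1 was 2.16, 2.45 and 2.12 in WT and 16.4, 17 and 15.5 in WT Reserve, a rise of 2.42. Tspan33, a tetraspanin of erythroid progenitors, rose by 2.89, from 3.41, 5.22 and 3.83 FPKM in WT to 31.5, 37.1 and 42.8 in WT Reserve. Slc25a37, the mitochondrial iron importer mitoferrin-1, rose by 0.74, from 5.4, 4.86 and 4.8 FPKM in WT to 9.07, 10.8 and 7.58 in WT Reserve. In KO Reserve it was 10.5, 8.23 and 9.47, against 6.08, 5.92 and 5.38 in KO Ctrl. Trim10, a RING-domain protein of late erythroid cells, was 5.65, 4.3 and 3.93 FPKM in WT Reserve, against 0.55 at most outside the reserve groups. Trim10 was 7.89, 3.84 and 4.32 in the KO Reserve libraries.

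Between the 2 reserve groups, Epor, Klf1, Cited4, Car1, Blvrb and most blood group genes were higher in the knockout, by ratios that differed from gene to gene. In KO Reserve against WT Reserve 14 of 27 genes were higher, 1 was lower and 12 were not called, whereas 41.3% of all genes tested were called, 12.0% higher and 29.3% lower. All 3 KO Reserve libraries lay above all 3 WT Reserve libraries for 16 genes and below for 1, beside 14.0% and 30.7% of all genes. The median log2 difference was 0.53 for these genes and -0.17 for all genes. The whole-table split moves with scaling: of all genes called, 29.0% were higher as deposited, 53.3% after quantile normalization and 51.3% after median-ratio scaling, and the number of called erythroid genes was 15 as deposited and 16 and 19 under these scalings. The deposited ratio of means ran from 0.66 for Gypc to 3.89 for Ank1. In the same libraries the LT-HSC marker sum was 65.1 to 72.6 FPKM in KO Reserve and 208 to 314 in WT Reserve, and the granulocyte, B cell and T cell sums were also lower in KO Reserve. The part of these shifts in the erythroid differences was not tested.

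**Figure D3:**
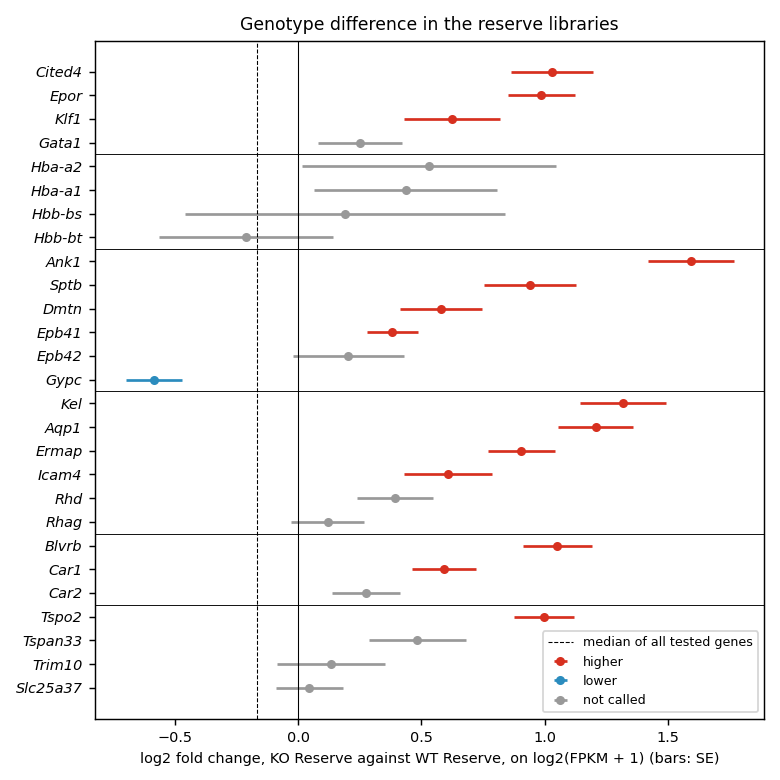
Log2 difference on the log2(FPKM + 1) scale, KO Reserve minus WT Reserve, for the 27 tested erythroid genes grouped by role; points are limma estimates with standard errors as bars, red (higher) or blue (lower) where called and grey where not, and the dashed line is the median of all genes, -0.17. Ank1 (1.59) is furthest to the right and Gypc (-0.59) furthest to the left.

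Among regulators, Epor was 58.1, 61.1 and 66.8 FPKM in KO Reserve against 28.2, 30.8 and 33.4 in WT Reserve, a log2 difference of 0.99 (SE 0.13; limma, adjusted p = 2.71e-05). Cited4 was 32.3, 35.7 and 35.4 against 16.7, 13.1 and 19.9, a difference of 1.03 (SE 0.17; limma, adjusted p = 0.000133). Neither gene's groups overlapped. Klf1 was 302, 267 and 254 against 169.5, 159 and 206, a difference of 0.62 (SE 0.20, limma, adjusted p = 0.0168). That call was lost with a pseudocount of 0.1 (difference 0.63, adjusted p = 0.231). It was also lost on leaving out WT Reserve replicate 2 (0.0572) and on leaving out KO Reserve replicate 1 (0.0579). Gata1 was 122, 116 and 94.3 against 90.3, 74.4 and 117, overlapping groups with a difference of 0.25 that was not called as deposited (limma, adjusted p = 0.258). It was called with median-ratio scaling (0.48, adjusted p = 0.0273).

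The enzymes and the outer membrane proteins gave many of the larger differences. Blvrb was 1368, 1535 and 1546 FPKM in KO Reserve, against 667, 762 and 716 in WT Reserve, a log2 difference of 1.05 (SE 0.14; limma, adjusted p = 2.06e-05). Car1 differed by 0.59 (SE 0.13, limma, adjusted p = 0.00163). The call ended with quantile normalization (difference 0.40, adjusted p = 0.0709). It also ended with a pseudocount of 0.1, where the difference stayed 0.59 (adjusted p = 0.242). Car2 was 2697, 2261 and 1897 against 1556, 2118 and 1979.9, with overlap between the groups, a difference of 0.28 that was not called (limma, adjusted p = 0.12). Car2 was called without KO Reserve replicate 3 (adjusted p = 0.0361) and with median-ratio scaling (0.51, adjusted p = 0.00413). Kel was 123, 145 and 176 FPKM in KO Reserve, a difference of 1.32 (SE 0.17; limma, adjusted p = 2.08e-05). Aqp1 was 34.8, 38 and 44.9 against 16.4, 17 and 15.5, a difference of 1.21 (SE 0.15; limma, adjusted p = 1.24e-05). Ermap was 149.7, 160.5 and 171 FPKM, a difference of 0.91, and Tspo2 was 171, 184 and 194, a difference of 1.0. Kel and Tspo2 lost their calls with a pseudocount of 0.1 (adjusted p = 0.0766 and 0.0730). Icam4 was 54.5, 52.7 and 56.8, a difference of 0.61. The Rh genes moved less: Rhd was 192, 161 and 155 FPKM, a difference of 0.39 (limma, adjusted p = 0.0504; 0.0341 after quantile normalization), and Rhag was 86.5, 68.6 and 65.4, a difference of 0.12 (limma, adjusted p = 0.55). The groups overlapped for Rhag, while every KO Reserve library was above every WT Reserve library for Rhd.

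In the membrane skeleton the knockout libraries held more Ank1 and Sptb and less Gypc. Ank1 was 6.91, 9.5 and 12.5 FPKM in KO Reserve against 3.04, 1.85 and 2.53 in WT Reserve, a log2 difference of 1.59 (SE 0.18; limma, adjusted p = 3.43e-06), the largest of the 27. Sptb was 4.32, 5.32 and 6.01 against 2.63, 1.87 and 2.2, a difference of 0.94 (SE 0.19; limma, adjusted p = 0.000722); Plekhg3, which overlaps Sptb on the other strand, was 0.332 to 1.18 FPKM, and the library kit is not stated to keep strand. Gypc was 56.8, 51.5 and 41.2 against 73.4, 66.8 and 85.2, a fall of 0.59 (SE 0.11; limma, adjusted p = 0.000633), with no overlap. Epb41 differed by 0.38. Dmtn was 1.55, 2.5 and 2.09 FPKM against 1.48, 1.04 and 0.622, a difference of 0.58 on the log2(FPKM + 1) scale, which understates the change of so low a gene. The Dmtn call was lost on leaving out WT Reserve replicate 3 (limma, adjusted p = 0.056) or KO Reserve replicate 2 (0.0558). It was also lost with a pseudocount of 0.1, where the difference was 0.95 (limma, adjusted p = 0.140). In a fit to the 6 reserve libraries alone the calls of Dmtn (0.0933) and Epb41 (0.104) were both lost. Epb42 was 5.68, 9.07 and 6.33 FPKM, a difference of 0.20 that was not called (limma, adjusted p = 0.502).

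The globins, Rhag, Epb42, Trim10, Slc25a37, Gata1 and Car2 were not called between the reserve groups as deposited, nor were Rhd and Tspan33, whose adjusted p-values were 0.0504 and 0.0592. The log2 differences of the globins were 0.44 for Hba-a1, 0.53 for Hba-a2, 0.19 for Hbb-bs and -0.21 for Hbb-bt, with limma's adjusted p from 0.375 to 0.848. The alpha globin values rested on WT Reserve replicate 2: without it Hba-a1 was 1.0 higher in KO Reserve (limma, adjusted p = 0.00687) and Hba-a2 1.27 higher (0.0104). Tspan33 was 60.6, 51.9 and 44.5 FPKM against 31.5, 37.1 and 42.8, with no overlap, and was called without WT Reserve replicate 3 and without KO Reserve replicate 3 (adjusted p = 0.0452 and 0.0486). A p that misses the threshold does not show that these levels were the same.

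The difference between genotypes was also tested as an interaction, the change in the reserve libraries minus that in the other libraries. It was called higher for 11 of 27 genes and lower for 1, beside 8.03% and 22.9% of all genes (30.9% in either direction), with a median of 0.59 against -0.22 for all genes. With a pseudocount of 0.1 in place of 1, 7 genes were called. Quantile normalization called 14 and median-ratio scaling 17, all of them higher. For genes near 0 outside the reserve groups this interaction restates the reserve difference by construction, which does not hold for members measurable in every library. Among those it was 0.93 for Epor, 1.19 for Blvrb, 1.30 for Aqp1 and 1.99 for Cited4 on the log2 scale. It was -0.52 for Gypc, the 1 member lower in this test, and that call ended with median-ratio scaling (-0.20, limma, adjusted p = 0.331) and with quantile normalization (-0.30, adjusted p = 0.135). Epb42 had an interaction of 0.92 beside a reserve difference of 0.20. Its levels outside the reserve groups were 0.768, 1.01 and 0.738 FPKM in WT and 0.195, 0.03 and 0.126 in KO Ctrl. The comparisons above share control samples: WT Reserve enters both the genotype comparison and the comparison with WT, and the same holds for KO Reserve.

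Outside the reserve groups few of the erythroid genes were called for genotype or Wnt5a. Of the 27 tested, 13 had passed the filter through the reserve libraries alone. Those 13 reached 1 FPKM in fewer than 3 of the 12 other libraries. For genes so low, a missing call in any comparison of these groups says little. KO Ctrl against WT gave 0 genes higher and 1 lower, Cited4, of 27, where 2.65% of all genes tested were called, 1.53% higher and 1.12% lower. Cited4 was 3.85, 4.35 and 2.94 FPKM in WT and 1.54, 1.68 and 1.03 in KO Ctrl, with no overlap, a fall of 0.96 (SE 0.17; limma, adjusted p = 0.00477). It kept this call under each alternative run for it. In the Wnt5a group, Cited4 was 2.38, 2.58 and 2.08 FPKM, and in KO Wnt5a it was 1.68, 1.36 and 2.07, so it lay below the WT libraries in all 9 other libraries of these groups. Cited4 was thus the gene with opposite directions by setting: lower in KO Ctrl than in WT, and higher in KO Reserve than in WT Reserve. The interaction of 1.99 given above is the test of that difference.

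**Figure D4:**
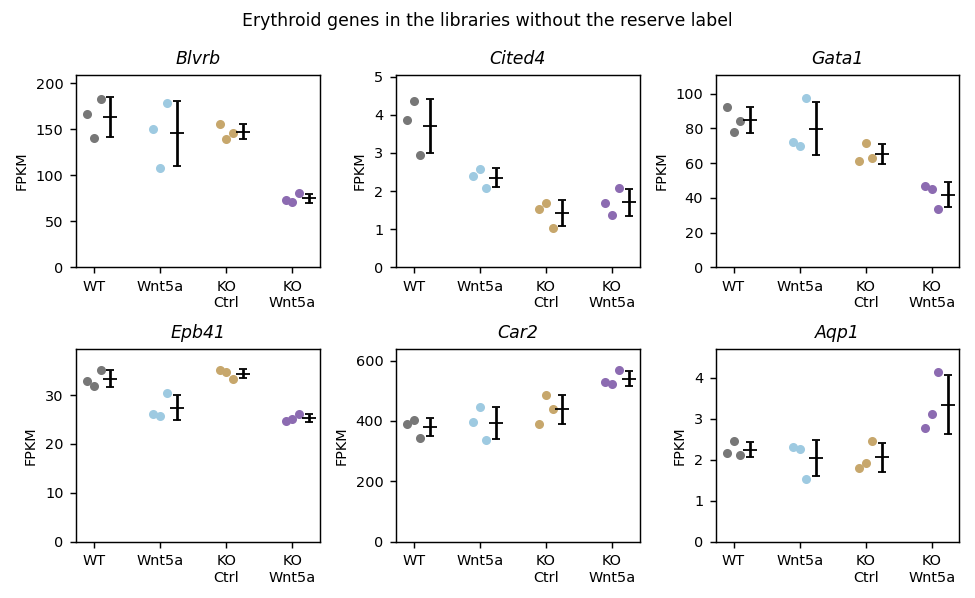
FPKM of 6 erythroid genes (Blvrb, Cited4, Gata1, Epb41, Car2 and Aqp1) in the 4 groups outside the reserve groups; points are libraries and bars are means ± SD (n = 3). The 3 KO Wnt5a libraries are lowest for Blvrb and Gata1, and the 3 WT libraries are highest for Cited4.

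Wnt5a against WT gave 0 of 27 genes called higher and 0 lower in limma's test, where 0.0490% of all genes were called, 0.0420% higher and 0.00700% lower. At an unadjusted p under 0.05, 1126 of all 14285 genes tested passed in either direction. Of the 27 genes, 0 were higher and 2 lower at that threshold, a share near that of all genes. The 2 were Epb41, 26.1, 25.8 and 30.4 FPKM against 32.9, 31.8 and 35.2 in WT, a log2 difference of -0.27, and Cited4, a difference of -0.48. Both were called when libraries were weighted by their quality, a setting that called 1541 genes in all against 7 as planned. Epb41 in the Wnt5a group lay wholly below WT.

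KO Wnt5a against KO Ctrl gave 0 genes higher and 1 lower, Blvrb, of 27, where 1.02% of all genes were called, 0.315% higher and 0.707% lower. Blvrb was 73.7, 71.2 and 80.8 FPKM in KO Wnt5a and 156, 140.0 and 146 in KO Ctrl, a fall of 0.96 (SE 0.14; limma, adjusted p = 0.00157) that kept its call under each alternative run for it. In the wild-type setting Blvrb was 150.2, 108 and 178 FPKM in Wnt5a and 166, 141 and 183 in WT, overlapping groups. The difference between those Wnt5a effects was -0.78 (SE 0.20; limma, adjusted p = 0.258) and was not called; it was -0.97 (adjusted p = 0.0165) without Wnt5a replicate 2. The test of that difference called 0 of the 27 genes in either direction, where 0.0700% of all genes were called, 0.0210% higher and 0.0490% lower. At an unadjusted p under 0.05, 3 of the 27 genes were higher and 3 lower, beside 863 of all 14285 genes tested in either direction.

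Gata1 and Epb41 had the same order between KO Wnt5a and KO Ctrl without being called. Gata1 was 46.8, 45.2 and 33.5 FPKM in KO Wnt5a, 61.1, 71.5 and 63 in KO Ctrl and 92.2, 77.6 and 84.3 in WT, with KO Wnt5a wholly below KO Ctrl and KO Ctrl wholly below WT. The log2 difference between KO Wnt5a and KO Ctrl was -0.64 (limma, adjusted p = 0.0924). The megakaryocyte marker sum in those groups was 7358 to 10680 FPKM in KO Wnt5a, 11520 to 19840 in KO Ctrl and 21000 to 30920 in WT, in the same order as Gata1, which megakaryocytes also express; its part in the Gata1 values was not tested. Epb41 was 24.7, 25.1 and 26.2 FPKM in KO Wnt5a and 35.1, 34.8 and 33.3 in KO Ctrl, a difference of -0.43 (limma, adjusted p = 0.0655), and was called in a fit to the 12 libraries outside the reserve groups, an alternative added after the data were seen. Car2 was 530.4, 522 and 569 FPKM in KO Wnt5a and 391, 485 and 439.7 in KO Ctrl, higher in all 3 libraries but not called (log2 difference 0.31, limma, adjusted p = 0.429).

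Other genes of the red cell pathway, from lists that were also chosen with earlier results known, moved in both directions between the reserve groups. Of 18 other erythroid transcription factors and cofactors tested, 2 were higher and 5 lower in KO Reserve than in WT Reserve, shares near those of all genes. For this and the other lists, the shares of all genes called in this comparison were 12.0% higher and 29.3% lower. Tal1, the partner of GATA1 and LMO2, was 0.99 higher on the log2 scale, while Nfe2 was lower (-1.39), as were Runx1 (-0.73) and Lmo2 (-0.60). Of 12 genes of erythropoietin signalling 1 was higher and 5 lower, among them the target genes Pim1 (-1.76) and Cish (-1.76), although Epor itself was higher. Of 21 genes of haem and iron handling, 8 were higher and 3 lower. The higher ones included Cpox (0.92) and Abcb6 (1.40), which act in haem synthesis and porphyrin transport, Glrx5 (0.99), which acts in iron-sulphur cluster assembly, and Tmem14c (0.76), which moves porphyrin into mitochondria. Alas2 is named here after its values were seen. Alas2, the erythroid rate-limiting enzyme of haem synthesis, was 1.51 ± 0.366 FPKM in KO Reserve, against 2.88 ± 1.03 in WT Reserve (SD, n = 3), a fall of 0.60 on the log2 scale (limma, adjusted p = 0.0262). Of 19 other red cell membrane genes, 5 were higher and 7 lower, among the latter the glucose transporter gene Slc2a1 (-1.77). Of 22 genes of terminal maturation 3 were higher and 6 lower. Against WT, 30.8% of all genes were higher in WT Reserve and 27.9% lower. In that comparison 6 of 18 transcription factors were higher and 8 lower, and 13 of 21 haem and iron genes higher and 3 lower. Of 22 maturation genes 10 were higher and 4 lower. Of 12 genes of erythropoietin signalling 3 were higher and 6 lower, and of 19 other red cell membrane genes 6 were higher and 7 lower.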

How the data were processed

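RNA from cells sorted in the LT-HSC gate was read in 18 libraries made with the SMARTer ultra low input kit, per the labels' protocols. The values are FPKM per gene as the authors deposited them; CASAVA 1.8.2, TopHat2 2.0.10, Cufflinks and the mm10 build are named in the submitters' processing notes. The column headings do not name the unit. The deposited table gives no counts, so each library's depth was estimated from the low FPKM values of genes with 1 transcript of 1000 to 4000 bp in GENCODE M21, whose positions are printed; 43938 of 44349 identifiers matched, and 16 rows with missing values were left out.

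Genes at 1 FPKM or more in at least 3 libraries (14285) were put on the log2(FPKM + 1) scale, a pseudocount of 1, and fitted with limma 3.58.1 in R 4.3.3, with 1 mean per group over all 18 libraries, trend and robust moderation and Benjamini-Hochberg adjustment over all genes; a gene was called at an adjusted p under 0.05. The pseudocount understates the change of low genes. The fit was tested on simulated data. Positions are mm10 and promoter windows are RefSeq GRCm38.p6.

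The members and lists were chosen with earlier results of these data known. Every member with a row is accounted for: those called in a pairwise comparison with their values in the reserve libraries, and with values, a range or a highest value in the others. From the other lists at most 4 called genes with the smallest p were named, with the exceptions stated. Alternatives covered scaling, pseudocount, filter, moderation, library weights, the libraries fitted, a replicate block and leaving out each replicate; a fit to the 12 libraries outside the reserve groups was added after the data were seen.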

Additional observations from a re-analysis of the deposited data

Results flagged for a closer look

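For 12 erythroid genes the difference between knockout and wild type was itself different in the reserve libraries and in the other libraries, by limma's interaction test (KO Reserve minus WT Reserve, less KO Ctrl minus WT, on the log2(FPKM + 1) scale; adjusted p under 0.05 over all genes). The size was 0.59 for Car1, 0.93 for Epor, 1.62 for Ank1, -0.52 for Gypc, 0.89 for Ermap, 1.18 for Kel, 1.30 for Aqp1, 0.92 for Epb42, 1.19 for Blvrb, 1.05 for Tspo2, 1.99 for Cited4 and 0.67 for Dmtn. For Car1, Ank1, Ermap, Kel, Tspo2 and Dmtn, which were near 0 outside the reserve groups, the value is close to the reserve difference alone by construction. Cited4 alone of the 12 was called in both settings, lower in KO Ctrl than in WT and higher in KO Reserve than in WT Reserve.

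The calls of Gypc, Epb42, Dmtn and Car1 were lost on leaving out single libraries, and under some other settings. The Gypc call was lost without WT replicate 2 or 3, KO Ctrl replicate 2, WT Reserve replicate 3 or KO Reserve replicate 3 (adjusted p from 0.0519 to 0.0599). The Epb42 call ended without any WT replicate, KO Ctrl replicate 2 or 3, WT Reserve replicate 1 or 2, or KO Reserve replicate 2 or 3 (0.0512 to 0.105). The Dmtn call ended without any WT replicate, KO Ctrl replicate 2 or 3, WT Reserve replicate 3, or KO Reserve replicate 2 or 3 (0.0637 to 0.105), and the Car1 call without WT Reserve replicate 1 or KO Reserve replicate 1 or 2 (0.0546 to 0.0637). With quantile normalization Gypc was -0.30 (adjusted p = 0.135) and Car1 0.40 (0.233), and with median-ratio scaling Gypc was -0.20 (0.331). With a pseudocount of 0.1 the calls of Car1, Dmtn, Tspo2, Ermap and Kel were lost (0.105 to 0.544). In a fit to the libraries compared alone, Gypc (0.0576) and Dmtn (0.0849) were lost, and with no filter on low values Epb42 (0.0838).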

How the results depend on the processing

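For the 82 member and comparison pairs called, 1288 values under the alternatives gave 1233 calls in the same direction, 55 that no longer passed the threshold and 0 reversals. Numbers of erythroid genes called moved as follows. For KO Ctrl against WT it was 1 as planned and 2 with library weights, with only the libraries compared (both adding Epb42) and with only the 12 libraries outside the reserve groups (adding Hbb-bs, higher). For Wnt5a against WT it was 0 and 2 with library weights. For KO Wnt5a against KO Ctrl it was 1 and 2 with library weights and with only the 12 libraries (both adding Epb41). The difference between Wnt5a effects gave 0 genes, and 0 to 1 when each replicate was left out. The difference between genotype effects gave 12, and 7 with a pseudocount of 0.1; it gave 9 to 13 when each replicate was left out. The cause of these shifts was not tested. KO Reserve against WT Reserve moved by no more than 1.5 times: it gave 15, with 10 at a pseudocount of 0.1, 19 with median-ratio scaling and 14 to 17 when each replicate was left out.

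Scaling moved the median of all genes in KO Reserve against WT Reserve from -0.17 to 0.03 (quantile) and in KO Reserve against KO Ctrl from -0.19 to about 0, and the share of called genes that were higher in the latter from 38.0% to 49.1% and 49.6% (quantile and median-ratio). That share went from 26.0% to 52.3% and 53.9% for the difference between genotype effects, and from 57.7% to 35.9% with median-ratio scaling for KO Ctrl against WT. Library weights raised the genes called in KO Ctrl against WT from 378 to 1480.

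Same-numbered libraries of different groups did not deviate together: 45 pairs had r from -0.0917 to 0.1, and 0 exceeded 0.1. With the replicate number as a block the erythroid genes called were 15 in KO Reserve against WT Reserve, 1 in KO Ctrl against WT, 0 in Wnt5a against WT, 1 in KO Wnt5a against KO Ctrl, 26 in WT Reserve against WT, 27 in KO Reserve against KO Ctrl, and 0 and 12 for the differences of effects, the same numbers as without it. Slc4a1, Hba-a2 and, but for 1 library, Hbb-bh1 lay below the value of 3 fragments in every library outside the reserve groups. Differences in these genes were thus not detectable there at this depth. Other members were also near 0 there, such as Car1, listed at 0 in 10 of the 12 libraries.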
